A study of Mus musculus with 45 samples.

Results

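Cluster C9 is a group of Ter119+ erythroblast nuclei that the authors' clustering of chromatin accessibility set apart. Its members were taken as the nuclei that the deposited table of nuclei assigned to C9 and to the genotype Stag2 WT. There were 1835 of them among 34073 nuclei in the table, with 544, 777 and 514 in WT replicates 1, 2 and 3. They made up 7.92%, 13.4% and 7.35% of the nuclei of these libraries (Wilson 95% intervals 7.31% to 8.59%, 12.5% to 14.3% and 6.76% to 7.99%, counting error only). The authors' maturation classes placed 1820 of the 1835 nuclei in Int, read here as intermediate, 15 in Early and 0 in Late.

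The libraries were single-nucleus ATAC libraries of Ter119+ erythroblasts from Stag2 WT mice and from mice in which Stag2 was deleted (KO), made by the 10x Genomics multiome protocol, with 3 libraries of each genotype. Mice of both genotypes had received pIpC, and nuclei were taken 6 to 8 weeks after its last dose. These libraries belong to a series of 45 samples. Ter119 is a surface marker of red cell precursors, and the Stag2 protein is part of cohesin, which forms chromatin loops. The labels used here do not give the driver that deleted Stag2, the age of the mice or whether each library came from 1 mouse. The spread between the 3 WT libraries may therefore be partly technical. The comparison clusters were the 3 other large WT clusters of the same libraries. C11 held 3607 WT nuclei, nearly all Int, C6 held 2834, mostly Int, and C3 held 10059, nearly all Late.

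Erythroblasts mature through a series of divisions in which the progenitor program, with Kit, Gata2, Myb and Myc, is shut down, the Gata1 and Klf1 program of globin, heme and membrane genes is completed, and the nucleus is condensed and expelled. Gata1 replaces Gata2 at shared sites during this switch. Chromatin around a gene can open before the gene is transcribed and stay open afterwards, so accessibility orders nuclei along this path without giving their transcript levels.

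The measure was the gene score, a signal that sums ATAC fragments around a gene, which the authors had scaled so that each nucleus summed to about 10000. For each library, the mean score of a cluster's nuclei was taken and rescaled so that all genes summed to 1000000, and every score below is on that scale. Differences are of log2(score + 1) between C9 and another cluster of the same library, given as the mean ± SD of the 3 libraries, which understates the change of low genes. Folds are taken from the same scale. Of 24333 genes, 17894 were compared, those whose mean across the 4 clusters reached 5. A gene is called here where the mean difference was at least 0.5 in size and had the same sign in all 3 libraries. The clusters were made from these accessibility data, so the differences between them carry no test and no p-value, and the calls describe size and repeatability only. Neighbouring genes share fragments, and a score is not expression.

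C9 nuclei were the deepest of the 4 groups. Their median number of fragments was 19427.5, 17341 and 16659 in the 3 libraries, against 15318.5, 15501 and 14126 in C11, 5027, 5872 and 5189 in C6, and 6960, 6626 and 5771 in C3. In every library C9 lay above the other 3 clusters. Enrichment at transcription start sites was lower in C9 (29.9 ± 2.45, SD, n = 3) than in C11 (33.2 ± 2.32), C6 (36.2 ± 2.17) and C3 (33.5 ± 2.16). The median share of fragments in peaks was 56.1% ± 2.97 in C9 and 56.7% ± 3.07 in C11, both below the 62.9% ± 1.94 of C6 and the 65.0% ± 1.23 of C3. A doublet score above 0 was given to 19.99% ± 4.26 of C9 nuclei, 18.2% ± 8.39 of C11, 6.33% ± 3.70 of C6 and 10.9% ± 4.23 of C3. These medians were not tested, since 3 paired libraries cannot give a two-sided exact p below 0.25. Across the 6 libraries 725 of 33320 cell barcodes occurred in more than 1 library. Of the C9 nuclei 73 carried such a barcode, and 2 barcodes were in C9 of 2 WT libraries.

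The 3 markers given with the cluster did not set it apart from the other Int clusters. Kit, the receptor for stem cell factor, scored 17.5, 21.4 and 13.4 in C9, 13.3, 15.5 and 14.96 in C11, 12.4, 12.1 and 13.5 in C6, and 4.94, 5.33 and 4.75 in C3. C9 therefore overlapped C11 and C6 and lay 3.02-fold above C3, a log2 difference of 1.60 ± 0.25. Gata1, the master regulator of erythroid genes, scored 96.5, 85.8 and 96.2 in C9, 91.4, 89.6 and 94.3 in C11, and 74.4, 74.6 and 70.8 in C3. Its difference from C3 was 0.34 ± 0.12, with the libraries apart but below the size of a call. Tfrc, the transferrin receptor that brings iron into erythroblasts, scored 162, 159 and 165 in C9 against 189, 174 and 178 in C3, slightly lower in C9 in all 3 libraries. Kit stayed above C3 under the alternatives run (0.88 to 1.73). The smaller differences of Gata1 and Tfrc from C3 depended on the scaling, with Gata1 at -0.10 under median centring and Tfrc at 0.08 under quantile normalization. None of the 3 markers was called against C11 or C6.

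**Figure D1:**
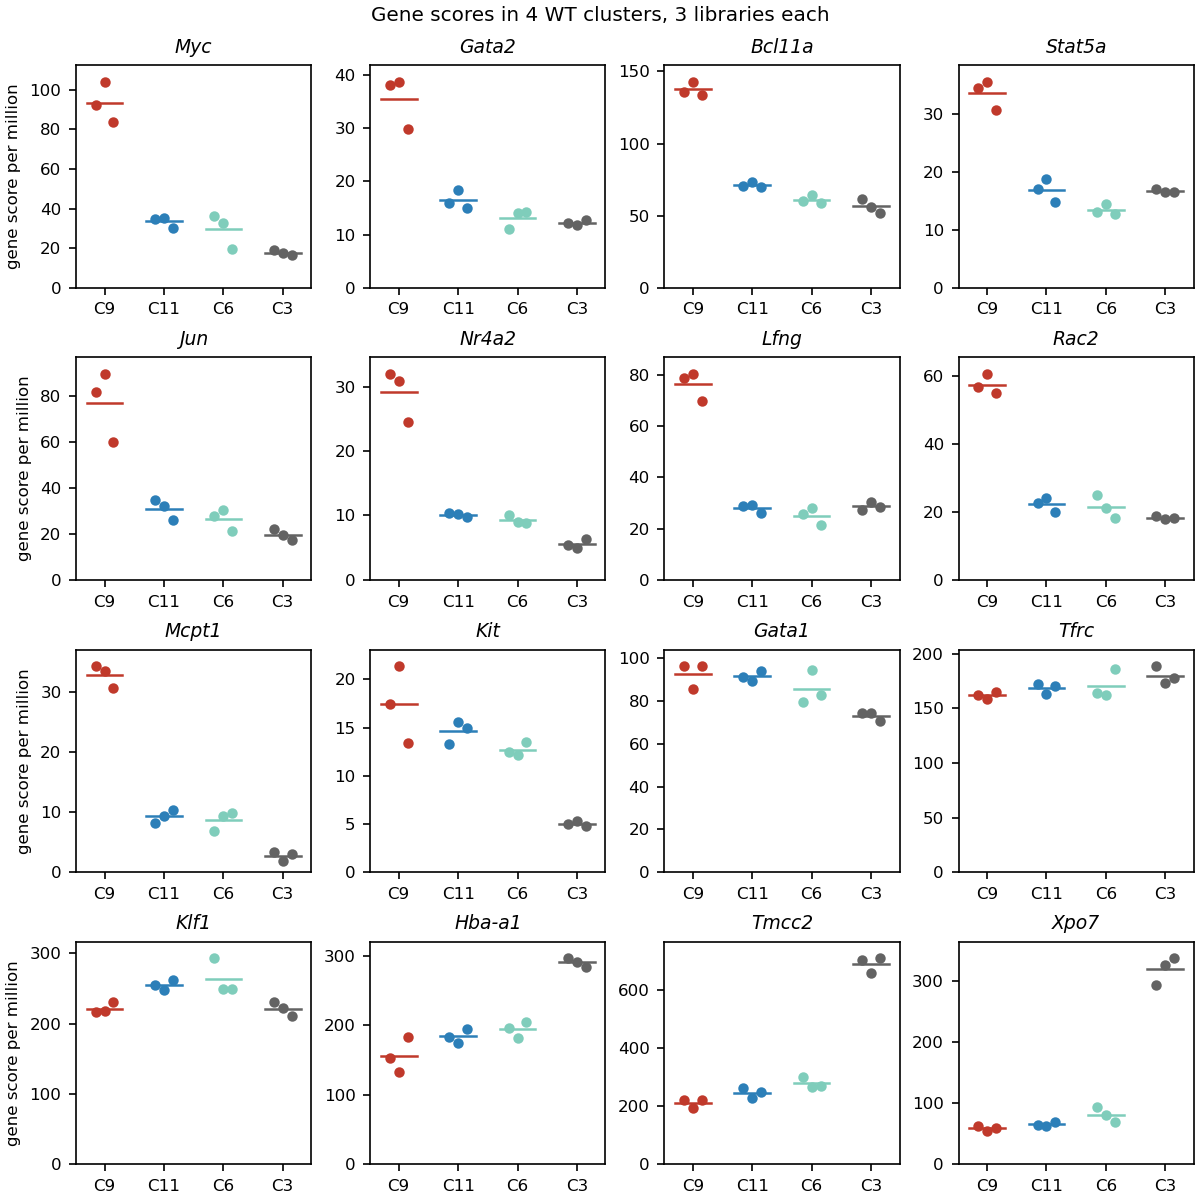
Gene score (y axis, linear, from 0) of 16 genes in WT clusters C9, C11, C6 and C3 (x axis). Points are replicates 1, 2 and 3 from left to right and bars are their means. Myc, Gata2, Bcl11a, Stat5a, Jun, Nr4a2, Lfng, Rac2 and Mcpt1 are highest in C9 with no overlap, while Xpo7, Tmcc2 and Hba-a1 are highest in C3.

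Against C11, the Int cluster nearest to it in depth, C9 had 1933 genes called higher and 209 called lower, 10.8% and 1.17% of the 17894 compared. Against C6 the counts were 4304 higher and 131 lower (24.1% and 0.732%). Against C3 they were 7104 higher and 900 lower (39.7% and 5.03%). In either direction 12%, 24.8% and 44.7% of the genes were called. In all, 1420 genes (7.94%) were called higher in C9 than in each of the 3 clusters, in 988 loci when genes within 100 kb were joined. A single gene (0.00559%) was called lower than in all 3. Just inside the threshold against C11, 621 genes had a difference from 0.5 to 0.6 and 921 lay within 0.1 below it with the same sign in all libraries. The differences repeated between libraries, with a correlation across the 17894 genes, which are not independent replicates, of 0.757 to 0.784 for C9 minus C11, 0.683 to 0.708 for C9 minus C6 and 0.908 to 0.943 for C9 minus C3.

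The split between higher and lower calls moved with the scaling and with depth. Centring each library on its median gene shifted the median difference by -0.26 against C11, -0.41 against C6 and -0.43 against C3, and the calls became 636 higher and 2315 lower, 1025 and 4404, and 3532 and 5133. Quantile normalization gave 1118 and 646, 1356 and 818, and 2442 and 2015. With genes ranked by score into 4 equal groups, the median difference from C3 was 0.78 in the lowest group and -0.22 in the highest. A slope of the same sign appeared inside C9 when each library's nuclei were split at the median fragment number. The deeper nuclei, with 26131.5, 23942 and 21354 fragments at the median, had 2044 genes (11.4%) called higher than the shallower nuclei, with 12877, 11827 and 12640, and 1 called lower. Of these 2044, 1455 lay in the lowest group of scores and 0 in the highest. They held 41 of the 1420 genes called higher in C9 than in all 3 clusters (2.89%).

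C9 nuclei were also set against nuclei of the other clusters with a similar number of fragments in the same library, within bins of 0.1 in log10. Median fragments after matching still differed, with 10753 in C9 and 10288 in C6 in library 3, and 11377.5 in C9 and 10693.5 in C3 in library 3. This kept 422, 615 and 501 nuclei a side against C11, 109, 212 and 146 against C6, and 293, 322 and 184 against C3. The calls were 1451 higher and 682 lower against C11, 2816 and 761 against C6, and 4146 and 944 against C3. Of the 1933 genes first called higher than C11, 71.5% were called again, and these were 95.3% of the matched calls. Of those first called higher than C6 and C3, 54.6% and 56.8% were called again, and 8 and 3 genes had opposite calls. Of the genes first called lower, 178 of 209 were called again against C11, 38 of 131 against C6 and 552 of 900 against C3. Higher than all 3 clusters were 748 genes, 726 of them among the 1420.

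**Figure D2:**
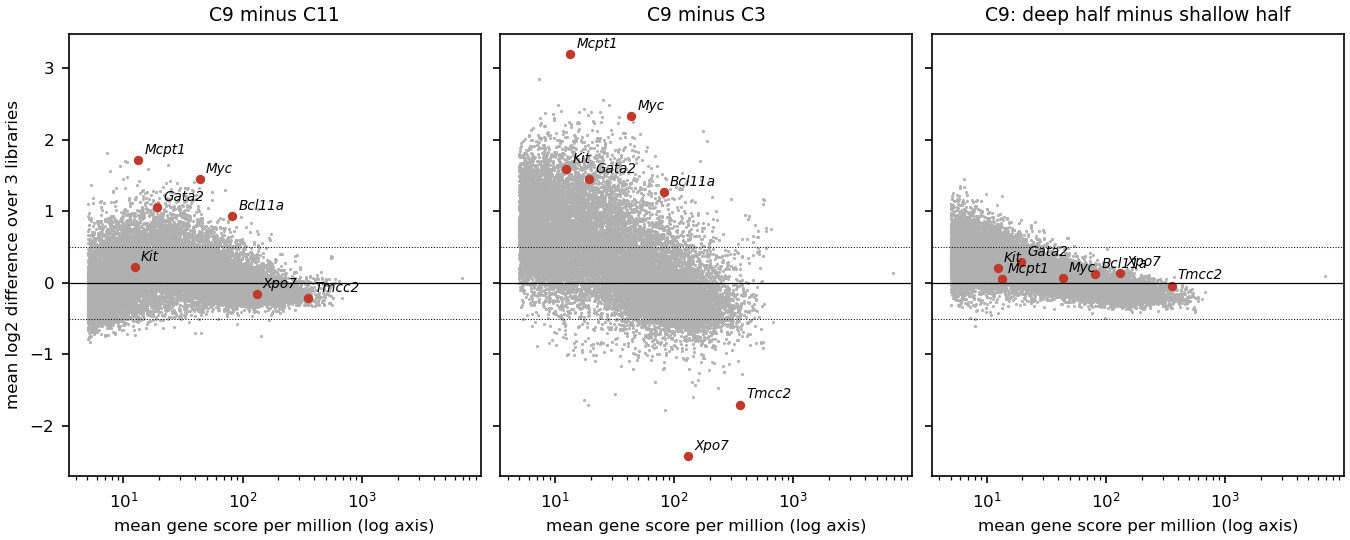
Mean log2 difference over the 3 WT libraries (y axis) against the mean gene score over the 4 clusters (x axis, log scale) for 17894 genes, as C9 minus C11, C9 minus C3, and the deeper minus the shallower C9 nuclei of each library. Dotted lines mark 0.5 and -0.5. Low genes lean upward in the C3 panel and in the depth panel (medians of 0.78 and 0.40 in the lowest score group) but not in the C11 panel (-0.06), whereas Myc, Bcl11a and Mcpt1 are raised in the first 2 panels and lie near 0 in the third.

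Among 26 erythroid regulators, all of them compared, 5 were called higher in C9 than in C11 and 0 lower. The counts were 8 and 0 against C6 and 9 and 3 against C3. The list's median difference was 0.07, 0.15 and 0.20, beside 0.02, 0.18 and 0.31 over all genes. The shares called higher over all genes were 10.8%, 24.1% and 39.7%, and 5.03% were called lower than C3. With median centring the counts became 4 and 4, 4 and 8, and 6 and 9. Over all 17894 genes centring gave 636 higher and 2315 lower, 1025 and 4404, and 3532 and 5133. All 3 C9 libraries lay above all 3 of C11, C6 and C3 for 10, 12 and 13 of the 26, and below them for 6, 7 and 9. The share of all genes separated in this way was not counted, so these numbers have no background.

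Myc, the transcription factor that drives growth and division of progenitors, had the largest difference of the list. It scored 92.1, 104 and 83.8 in C9, 34.6, 35.5 and 30.4 in C11, 36.3, 32.9 and 19.6 in C6, and 19.2, 17.4 and 16.6 in C3. Every C9 library lay above every other value, 2.73-fold over C11 (1.45 ± 0.07), 3.17-fold over C6 (1.66 ± 0.36) and 5.03-fold over C3 (2.33 ± 0.16). In matched nuclei the differences were 1.37, 1.79 and 2.24. H2afy3, a gene on the same chromosome (chr15:62217541-62219451, against chr15:61985341-61990361 for Myc, mm10), scored 62.4, 59.1 and 43.7 in C9 and 18.9, 15.2 and 16.0 in C11. In matched nuclei 54.7%, 57.9% and 53.5% of C9 nuclei had a Myc score above 0, against 35.3%, 32.2% and 29.5% of C11 nuclei.

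Gata2, the GATA factor of stem cells and early progenitors (chr6:88193891-88207032), scored 38.1, 38.7 and 29.7 in C9. It scored 16.0, 18.4 and 14.9 in C11, 11.1, 14.0 and 14.3 in C6, and 12.2, 11.8 and 12.7 in C3. The groups did not overlap, and the differences were 1.06 ± 0.13, 1.37 ± 0.34 and 1.46 ± 0.25. Matching on fragments reduced them to 0.79, 1.24 and 1.10. The 2 other genes compared that start within 100 kb of Gata2 were also called higher than C11.

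Bcl11a, a repressor of embryonic and fetal globin genes, scored 136, 143 and 134 in C9 against 70.7, 73.5 and 69.8 in C11, 60.4, 64.4 and 58.7 in C6, and 61.8, 56.2 and 51.6 in C3. It was 1.91-fold higher than in C11, with the smallest spread of the 5 regulators called (0.94 ± 0.01). No other gene compared started within 100 kb. Stat5a, which carries the erythropoietin signal to the nucleus, scored 34.4, 35.6 and 30.6 in C9 and 17.0, 18.8 and 14.8 in C11. Its differences were 0.96 ± 0.06 from C11, 1.26 ± 0.07 from C6 and 0.96 ± 0.10 from C3, the last falling to 0.53 in matched nuclei. Stat5b, its neighbour and paralogue, scored 53.5, 53.3 and 43.8 in C9 and 31.6, 32.4 and 29.4 in C11 (0.67 ± 0.10).

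A further 5 regulators were called higher against C6 or C3 and not against C11. Bach2 differed from C11 by 0.43 ± 0.04, from C6 by 0.84 ± 0.09 and was 2.83-fold higher than in C3. Gfi1b, a repressor needed in erythroid and megakaryocytic cells, differed from C3 by 1.16 ± 0.05 and from C11 by 0.18 ± 0.10. Myb, which keeps progenitors dividing, had differences of 0.07 ± 0.08, 0.53 ± 0.05 and 0.82 ± 0.03, and matching lowered the last to 0.28. Ikzf1 differed from C3 by 0.86 ± 0.03, and Sox6 was called higher against C6 only (0.51 ± 0.07). Of 16 early erythroid genes, Kit, Gata2, Myb and Myc among them, 3, 4 and 7 were called higher than C11, C6 and C3. In this list 0 were called lower. Over all genes 10.8%, 24.1% and 39.7% were called higher. The list's median differences were 0.05, 0.15 and 0.35, beside 0.02, 0.18 and 0.31 over all genes. With median centring 2, 2 and 4 were called higher and 2, 2 and 5 lower. Centring called 636, 1025 and 3532 of all genes higher and 2315, 4404 and 5133 lower.

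Klf1, Tal1, Zfpm1 and Epor were not called against any of the 3 clusters, though Klf1 and Epor lay below C11 in all libraries. Klf1, which activates adult beta globin, scored 217, 217 and 230 in C9, 255, 249 and 262 in C11, and 231, 222 and 211 in C3. Its difference from C11 was -0.20 ± 0.03, below the size of a call, and from C3 0.00 ± 0.11. With median centring the Klf1 difference was -0.46 from C11 and -0.66 from C6. Tal1 differed from the 3 clusters by -0.03, 0.09 and 0.18 and Zfpm1, the cofactor of Gata1, by 0.06, 0.04 and 0.21. Epor, the erythropoietin receptor, scored 132, 134 and 128 in C9 and lay below all libraries of C11, C6 and C3, with differences of -0.31 ± 0.10, -0.34 ± 0.03 and -0.31 ± 0.06 that were not called. With median centring they were -0.56, -0.75 and -0.74. The 3 regulators called lower in C9 than in C3 were E2f2 (-0.68), Cbfa2t3 (-0.62) and Bach1 (-0.58), and quantile normalization called 0 of the list lower.

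Of 24 genes of erythropoietin and Kit signalling compared, 7 were called higher in C9 than in C11 and 0 lower. The counts were 10 and 0 against C6 and 14 and 2 against C3, and with median centring 2 and 3, 2 and 6, and 12 and 7. Over all genes 10.8%, 24.1% and 39.7% were called higher with the scores as deposited, and 1.17%, 0.732% and 5.03% lower. Centring called 636 of the 17894 genes higher and 2315 lower than C11, 1025 and 4404 for C6, and 3532 and 5133 for C3. The list's median difference was 0.24, 0.44 and 0.88, beside 0.02, 0.18 and 0.31 over all genes, and matching lowered the first to 0.04 with 5 called higher than C11 and 1 lower. Matching called 1451 of the 17894 genes higher and 682 lower than C11. The higher members included inhibitors of the pathway. Spry1, an inhibitor of receptor tyrosine kinase signals, scored 21.8, 23.0 and 18.5 in C9 and 9.34, 11.95 and 6.82 in C11 (1.12 ± 0.21). Sh2b3, the adaptor Lnk that restrains Jak2, scored 91.0, 102 and 90.3 against 50.5, 58.6 and 57.9 (0.75 ± 0.11). The 2 called lower than C3 were Bcl2l1, the survival gene of late erythroblasts (176, 163 and 185 against 449, 400 and 404, -1.25 ± 0.12), and Pim1 (-0.64 ± 0.03).

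Immediate early genes, which respond to growth signals within minutes, were partly higher in C9. Of 19 such genes, a list written after the leading genes were seen, 8 were called higher than C11 and 0 lower, 9 and 0 than C6, and 12 and 1 than C3. Over all genes 10.8%, 24.1% and 39.7% were called higher, and 1.17%, 0.732% and 5.03% lower. With median centring the counts became 3 and 1, 2 and 3, and 4 and 6. Over all 17894 genes centring gave 636 higher and 2315 lower, 1025 and 4404, and 3532 and 5133. Jun, a subunit of the AP-1 factor, scored 81.5, 89.6 and 59.9 in C9, 34.6, 32.1 and 25.9 in C11, and 21.9, 19.7 and 17.3 in C3. It was 2.43-fold higher than in C11 (1.28 ± 0.15) and 3.74-fold higher than in C3 (1.90 ± 0.20). Nr4a2, a nuclear receptor of this class, scored 32.0, 30.9 and 24.5 in C9 and 10.3, 10.1 and 9.83 in C11 (1.43 ± 0.17). Fosb (0.92 ± 0.20), Egr1 (0.69 ± 0.02), Fos (0.58 ± 0.11) and Nr4a3 (0.53 ± 0.14) were called against C11 too. Junb and Jund were not, with 0.03 and -0.16.

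Some genes of the Notch pathway were higher in C9, though against C3 the share called higher was close to that of all genes. Of 20 compared, also listed after the leading genes were seen, 4 were called higher than C11, 8 than C6 and 8 than C3, and 0 lower. Over all genes 10.8%, 24.1% and 39.7% were called higher. The list had medians of 0.11, 0.42 and 0.30 beside 0.02, 0.18 and 0.31 over all genes. With median centring the medians were -0.15, 0.01 and -0.14, with 3 higher and 1 lower, 4 and 2, and 6 and 2. Over all 17894 genes centring gave medians of -0.24, -0.24 and -0.12. It called 636 of them higher and 2315 lower, 1025 and 4404, and 3532 and 5133. The 4 called higher than C11 were Lfng, which adds sugars to Notch receptors, Hey1, a target repressor, Rbpj, the DNA-binding subunit, and Nrarp. Lfng scored 78.7, 80.3 and 69.6 in C9, 28.6, 29.2 and 26.0 in C11, and 27.1, 30.5 and 28.3 in C3 (1.41 ± 0.03 and 1.38 ± 0.12). The receptors Notch1 and Notch2 were not called against C11, with 0.00 and 0.29.

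Promoter sequences are shown for 3 of these genes and for an alpha globin gene that was lower in C9 than in C3, because their windows were compared for the same motifs. Each is the 250 bases before the RefSeq start on GRCm38.p6, read 5′ to 3′, and capitals mark motif matches on either strand. The GATA motif was searched as AGATAA and, in the same count, as the form TGATAA. The AP-1 motif was searched as TGANTCA, with any base at N. The cyclic AMP response element was searched as TGACGTCA. The E-box was searched as CACGTG, and no motif contains another.
Jun promoter, chr4:95052223-95052472, minus strand: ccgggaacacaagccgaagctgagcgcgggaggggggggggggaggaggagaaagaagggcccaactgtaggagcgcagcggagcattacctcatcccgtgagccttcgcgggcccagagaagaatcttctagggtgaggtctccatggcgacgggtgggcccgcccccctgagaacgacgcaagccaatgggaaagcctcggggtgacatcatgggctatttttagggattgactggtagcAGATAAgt
Lfng promoter, chr5:140607091-140607340, plus strand: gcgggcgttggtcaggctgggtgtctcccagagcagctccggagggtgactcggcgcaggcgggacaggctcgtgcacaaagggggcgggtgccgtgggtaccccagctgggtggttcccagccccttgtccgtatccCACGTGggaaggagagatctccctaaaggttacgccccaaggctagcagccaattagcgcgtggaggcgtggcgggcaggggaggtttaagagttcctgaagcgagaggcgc
Gata2 promoter, chr6:88193641-88193890, plus strand: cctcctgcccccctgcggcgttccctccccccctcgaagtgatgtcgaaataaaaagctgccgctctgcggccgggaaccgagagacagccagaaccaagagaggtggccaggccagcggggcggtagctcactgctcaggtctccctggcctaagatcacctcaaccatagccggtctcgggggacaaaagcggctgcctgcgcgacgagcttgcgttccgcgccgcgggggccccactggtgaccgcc
Hba-a1 promoter, chr11:32283422-32283671, plus strand: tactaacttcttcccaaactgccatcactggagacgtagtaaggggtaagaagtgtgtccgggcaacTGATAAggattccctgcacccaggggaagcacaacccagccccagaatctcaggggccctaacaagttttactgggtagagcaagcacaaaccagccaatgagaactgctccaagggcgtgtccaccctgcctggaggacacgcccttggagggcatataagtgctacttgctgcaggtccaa

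Jun held 1 GATA match, Hba-a1 held 1, Lfng held 1 E-box and Gata2 held none of the 4 motifs in these windows. GATA matches were in 12.4% of the 1040 promoters found for the genes higher in C9 than in all 3 clusters, in 7.98% of the 677 found for genes lower than in C3 and in 10.4% of the 13250 found for all genes compared. AP-1 matches were in 5.38%, 4.87% and 4.87%. Of the promoters found for genes lower in C9 than in C11, 16 of 139 (11.5%) held an AP-1 match, and 7 of 98 (7.14%) for genes lower than in C6. The genes higher than in all 3 clusters had a median of 10 CpG in the window and a median score of 17.7, against 14 and 28.3 over all genes. Within the second-lowest of the 4 groups of scores, which held 592 of the 1040, the median was 11 in both sets. It was 5 against 6 over all genes in the lowest group, 15 against 16 in the third and 13.5 against 18 in the highest. A match is a string of letters and not an occupied site.

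Several of the largest differences from C11 belonged to genes of low score that are known from other cell types. Mcpt1, a mast cell protease gene, scored 34.3, 33.5 and 30.5 in C9, 8.20, 9.28 and 10.4 in C11, 6.88, 9.33 and 9.76 in C6, and 3.32, 1.84 and 2.99 in C3. A score above 0 was found in 26.5%, 23.7% and 23.0% of matched C9 nuclei against 5.45%, 7.32% and 10.2% of C11 nuclei. Mcpt9, a gene of the same family on chromosome 14, differed from C11 by 1.81 ± 0.11 and from C3 by 2.86 ± 0.38. Between the deeper and the shallower C9 nuclei they differed by 0.05 and 0.03.

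Taar7b, a trace amine receptor gene in a run of 6 neighbours higher than all 3 clusters on chromosome 10 (chr10:23999939-24109534), scored 25.6, 22.4 and 22.7 in C9 and 7.18, 6.83 and 5.70 in C11. Rac2, a small GTPase of blood cells, scored 56.6, 60.5 and 54.8 in C9 against 22.7, 24.0 and 19.95 in C11 (1.33 ± 0.07) and 18.7, 17.8 and 18.3 in C3 (1.60 ± 0.10). Ikzf2, which encodes the zinc finger factor Helios, scored 76.1, 70.6 and 60.2 against 27.7, 28.5 and 24.5 in C11 (1.32 ± 0.09). Aqp8, a water channel gene, varied among libraries and scored 44.4, 35.9 and 24.3 in C9 and 11.6, 12.6 and 8.07 in C11 (1.59 ± 0.23).

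Late erythroid genes had a lower summed score in C9 than in C3 and, by a smaller margin, than in C11 and C6. Their summed score was 2852 to 3135 in C9, 3236 to 3412 in C11, 3393 to 3636 in C6 and 4905 to 5097 in C3, so C9 lay below each cluster. Of 20 compared, 11 were called lower than C3 and 1 higher, beside 5.03% and 39.7% of all genes, while 0 were called in either direction against C11 or C6. Of all genes 12% and 24.8% were called against C11 and C6. The median differences were -0.17, -0.21 and -0.53 from C11, C6 and C3, beside 0.02, 0.18 and 0.31 over all genes. All 3 C9 libraries lay below all 3 of the other cluster for 13, 12 and 17 of the 20 genes. The share of all genes separated in this way was not counted. In the highest of the 4 groups of scores the median differences over all genes were -0.10, -0.16 and -0.22. Under median centring 17 were called lower than C3, 14 lower than C6 and 2 lower than C11. Over all 17894 genes it called 5133, 4404 and 2315 lower. Xpo7, an exporter of nuclear proteins in maturing erythroblasts, scored 62.4, 54.4 and 59.9 in C9, 65.1, 63.2 and 69.8 in C11, 93.1, 81.4 and 68.5 in C6, and 294, 328 and 338 in C3. The C3 libraries stood far above the others, a C9 difference of -2.42 ± 0.18, and -2.48 in matched nuclei. Tmcc2 scored 221, 194 and 220 in C9 and 703, 659 and 710 in C3 (-1.70 ± 0.05). Bpgm, which makes the ligand that lowers the oxygen affinity of hemoglobin, differed by -1.11, and Slc4a1, the band 3 anion exchanger, by -0.75. Hemgn was the member called higher (0.56), a call lost in matched nuclei (0.48) and with median centring (0.12).

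The globin genes were lower in C9 than in C3 too. Of 9 compared, 5 were called lower in C9 than in C3 and 0 higher, 0 in either direction against C11, and 1 higher than C6. Of all genes 5.03% were called lower than C3, 12% in either direction against C11 and 24.1% higher than C6. The C6 counts moved with the processing, from 1 higher and 0 lower to 0 and 0 with quantile normalization, 2 and 2 in matched nuclei and 0 and 6 with median centring. Median centring called 8 lower than C3 and 1 lower than C11, and 0 higher. Over all 17894 genes it called 5133 lower than C3, 4404 lower than C6 and 2315 lower than C11. Matching called 2816 of them higher and 761 lower than C6. Hba-a1, an adult alpha globin gene, scored 152, 133 and 183 in C9, 183, 175 and 194 in C11, 197, 182 and 205 in C6, and 296, 290 and 284 in C3. C9 overlapped C11 and C6 and lay below C3, with a difference of -0.90 ± 0.25. The other adult alpha gene, Hba-a2, differed from C3 by -1.21 ± 0.18 and Hbb-bs, an adult beta globin gene, by -0.68 ± 0.15. The alpha and beta genes each share their fragments with neighbours in a cluster, so these are not separate measurements.

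Clearance genes, which serve the removal of mitochondria, showed 8 of 14 called lower than C3 and 0 higher, with 1 lower and 1 higher against C6 and 0 called against C11. Gabarapl2 differed from C3 by -1.05 ± 0.05, Sqstm1 by -0.93 ± 0.03 and Bnip3l, the mitophagy receptor Nix, by -0.80. Of 21 enucleation genes 4 were called lower than C3 (Xpo7, Ube2h, Wdr26 and Riok3) and 4 higher (Rac2, Tubb1, Diaph3 and Cit), and with median centring 8 and 3. Of 26 membrane skeleton genes 4 were lower, led by Epb41 (-1.09 ± 0.03), and 3 higher, led by Aqp1 (0.89), and with median centring 15 and 0. Over all genes 5.03% were called lower and 39.7% higher than C3, 0.732% lower and 24.1% higher than C6, and 12% in either direction against C11. Of the clearance genes, median centring called 9 lower than C3 and 8 lower than C6, and 0 higher. Over all 17894 genes it called 5133 lower and 3532 higher than C3, and 4404 lower and 1025 higher than C6.

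In either direction, 44.7% of all genes were called against C3 with the scores as deposited. Heme synthesis genes were called about as often and iron genes less often. Of 13 heme synthesis genes compared 3 were called higher and 3 lower than C3, and 0 were called against C11. Over all genes 39.7% were called higher and 5.03% lower than C3, and 12% were called against C11. Alas2, the erythroid rate-setting enzyme, differed from C3 by -0.52 and Alas1, its housekeeping counterpart, by 0.61. Of 15 iron genes 1 was called higher (Steap3, 0.67) and 2 lower (Ncoa4 and Iscu, both -0.61). Quantile normalization called 0 of both lists lower than C3 and 2 of each higher. Median centring called 6 heme genes lower and 1 higher than C3, and 7 iron genes lower and 0 higher. Against C6, 3 heme genes were called higher and 0 lower with the scores as deposited (2 and 0 in matched nuclei), and 0 iron genes were called. Of all genes 24.1% were called higher and 0.732% lower than C6. In matched nuclei 2816 of the 17894 genes were called higher and 761 lower than C6. Median centring called 6 heme and 7 iron genes lower than C6 and 0 higher. Over all 17894 genes it called 4404 lower and 1025 higher than C6, and 5133 lower and 3532 higher than C3.

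Genes of replication and mitosis were called higher than C11 about as often as all genes. Of 34 compared, 3 were called higher than C11 and 0 lower, 6 and 0 than C6, and 10 and 1 than C3, whereas median centring gave 0 and 1, 1 and 13, and 4 and 8. The share called higher over all genes was 10.8% against C11, 24.1% against C6 and 39.7% against C3. The share called lower was 1.17%, 0.732% and 5.03%. With median centring the counts over all 17894 genes were 636 higher and 2315 lower, 1025 and 4404, and 3532 and 5133. The 3 called against C11 were Cdk6 (106, 103 and 89.2 in C9, 59.4, 59.3 and 59.5 in C11, 0.73 ± 0.13), Cdk4 (0.67 ± 0.12), both partners of D cyclins at entry into the cell cycle, and Rrm2 (0.60), a subunit of ribonucleotide reductase. Mitotic genes such as Plk1 (-0.01 against C3), Cdc20 (-0.15) and Ccnb1 (-0.29) were not called. The replication genes Tyms and Pola1 stayed above C3 under the alternatives run (0.97 to 1.74 and 1.09 to 1.58). Of 14 cell cycle exit genes 0 were called against C11, 2 were higher and 1 lower than C6, and 3 were higher and 2 lower than C3. Median centring gave 0 higher and 1 lower than C11, 0 and 7 against C6, and 1 and 8 against C3, and matching gave 2 higher than C11. Matching called 1451 of the 17894 genes higher than C11.

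Of 15 cohesin genes 0 were called against C11 or C6, and 3 higher and 1 lower against C3, beside 39.7% and 5.03% of all genes. Of all genes 12% and 24.8% were called against C11 and C6 in either direction. With median centring 2 were called lower than C11, 8 lower than C6 and 9 lower than C3, with 1 higher than C3. Over all 17894 genes centring called 2315 lower than C11, 4404 lower than C6 and 5133 lower than C3, with 3532 higher than C3. Stag1, the paralogue of Stag2, scored 148, 143 and 136 in C9 and 72.7, 72.6 and 65.3 in C3 (1.01 ± 0.04). Stag2 scored 62.7, 63.5 and 65.9 in C9, with differences of 0.12, 0.13 and -0.12 from C11, C6 and C3.

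**Figure D3:**
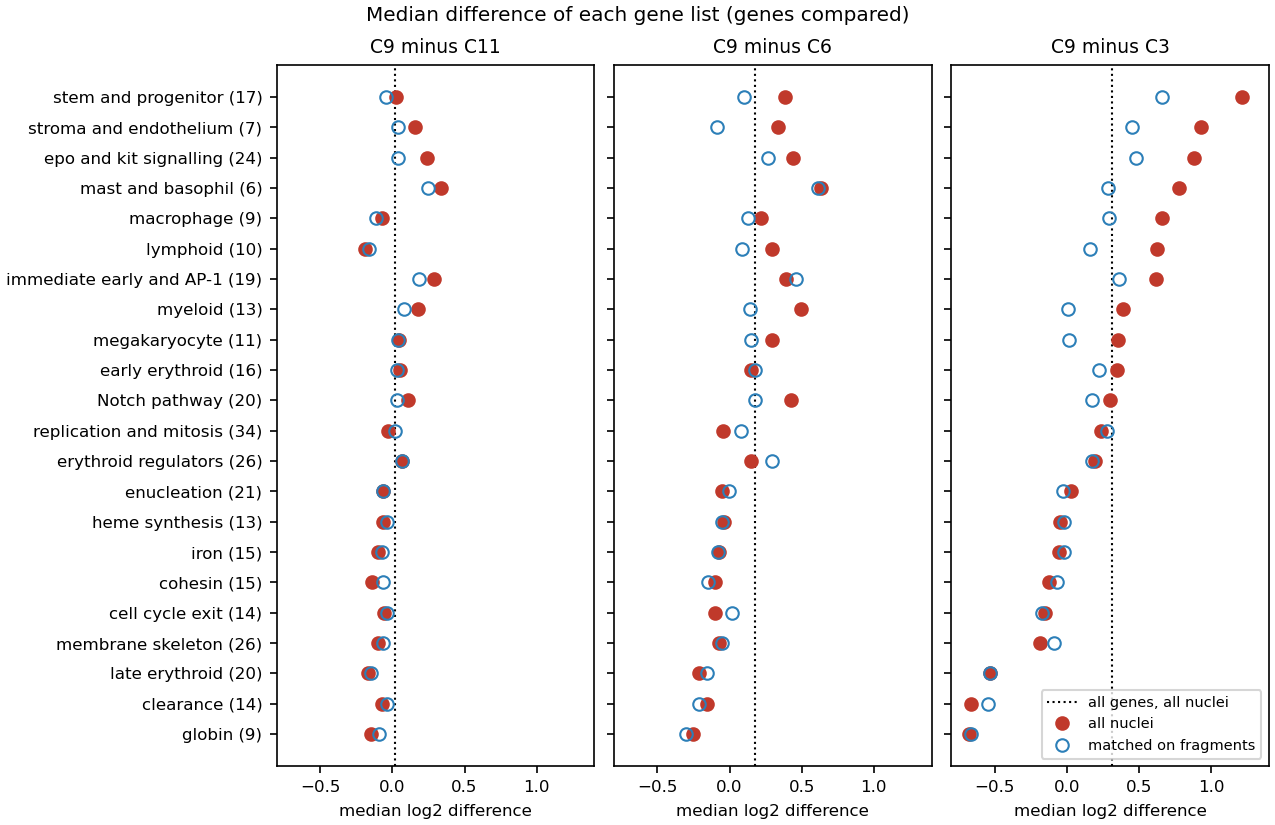
Median log2 difference (x axis) of each gene list (y axis, genes compared in brackets) for C9 minus C11, C6 and C3. Filled points use all nuclei, open points use nuclei matched on fragment number, and the dotted line is the median of all genes with all nuclei. Late erythroid, clearance and globin genes lie lowest against C3 in both, while the stem list, the lists of other cell types, signalling and immediate early genes move down against C3 on matching. The median of all genes against C3 also moves down, from 0.31 to 0.11.

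Markers of other blood and marrow cells were scored in the same way. Of 17 stem and progenitor genes compared, 11 were called higher than C3 with a median of 1.21, which matching lowered to 0.66 with 9 called, and 3 were called higher than C11 (Gata2, Hoxa7 and Hoxa9), also 3 in matched nuclei. Against C6 5 were called higher and 0 lower, and 2 and 1 in matched nuclei. With median centring 9 were called higher than C3, and 3 higher and 3 lower than C11. Hoxa9 scored 13.6, 10.997 and 7.62 in C9 and 3.17, 4.83 and 2.59 in C11. Its C11 scores were all under 5, and the mean that had to reach 5 included C9, where Hoxa9 was higher. In the lists of other cell types, 2 of 13 myeloid, 1 of 9 macrophage, 1 of 10 lymphoid, 2 of 11 megakaryocyte, 2 of 6 mast and basophil and 0 of 7 stroma and endothelium genes were called higher than C11, beside 10.8% of all genes, and 0 of all these were called lower. In matched nuclei 1 lymphoid and 1 stroma and endothelium gene were called lower than C11, and with median centring 5 lymphoid, 2 macrophage, 1 megakaryocyte and 1 stroma and endothelium gene were. Median centring left 0 myeloid, 0 macrophage, 1 lymphoid, 1 megakaryocyte, 2 mast and basophil and 0 stroma and endothelium genes called higher than C11. Over all 17894 genes it called 636 higher and 2315 lower than C11, and 3532 higher than C3. Against C6 the numbers called higher were 6, 3, 3, 3, 3 and 1, beside 24.1% of all genes, and 0 were called lower, and in matched nuclei they were 2, 0, 2, 3, 3 and 1. Matching called 2 macrophage, 1 lymphoid and 1 megakaryocyte gene lower than C6. Against C3 the numbers called higher were 3, 5, 5, 3, 5 and 4, with 1 myeloid and 1 macrophage gene called lower. In matched nuclei they were 1, 2, 3, 3, 2 and 3, with 2 myeloid genes and 1 macrophage gene called lower. Over all genes 39.7% were called higher and 5.03% lower than C3 with all nuclei. Matching called 1451 of the 17894 genes higher and 682 lower than C11. The matched counts over all genes were 2816 and 761 against C6, and 4146 and 944 against C3.

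The mast and basophil list is described further because mast cell protease genes had some of the largest differences. Its summed score was 103 to 140 in C9, 67.2 to 93.0 in C11, 65.1 to 69.4 in C6 and 55.3 to 59.0 in C3, so C9 lay above every other cluster in every library. Gata2, also a member of the erythroid regulator and stem lists, supplied 38.1, 38.7 and 29.7 of the C9 sums. Without Gata2 the C9 and C11 ranges overlap. Of the 6 genes compared, Gata2 and Il1rl1, the receptor of interleukin 33, were called higher than C11 (1.06 and 0.85). Prss34 (0.38 ± 0.03), Cma1 (0.30 ± 0.36), Hdc (0.28 ± 0.77) and Tpsb2 (-0.12 ± 0.22), enzymes of these cells, were not called against C11. The remaining 4 of the 10 genes were under the minimum score. Among these Ms4a2, a subunit of the high-affinity IgE receptor, scored 8.40, 10.3 and 4.52 in C9 and 4.30, 2.48 and 2.46 in C11, higher in all 3 libraries. Cpa3, mast cell carboxypeptidase, scored 2.72, 4.39 and 2.41 in C9 and 3.43, 4.85 and 3.12 in C11, lower in all 3 libraries. Mcpt8, a basophil protease, was lower too, with 2.26, 1.75 and 1.10 against 4.004, 2.32 and 1.67. Fcer1a scored 3.82, 5.12 and 2.57 against 6.73, 4.20 and 3.52, and overlapped. None of the 10 genes was at 0 in C9. The defining genes thus differed in direction, and the part of mast cells or basophils in the Mcpt1, Mcpt9 and Gata2 scores was not tested.

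Genes called lower in C9 numbered 209 against C11 and 131 against C6 with the scores as deposited. These counts moved with the scaling, to 682 and 761 in matched nuclei, 646 and 818 with quantile normalization and 2315 and 4404 with median centring. They were 22 and 89 with a pseudocount of 5, 15 and 106 with a minimum mean of 20, 79 and 201 with nuclei weighted by fragments, and 369 and 156 without the nuclei of highest doublet score. Against C6 the lowest included Snx11 (97.4, 97.4 and 111 in C9, 154, 168 and 167 in C6, -0.68 ± 0.10), Dohh (-0.66 ± 0.04) and Ypel5 (-0.64 ± 0.09). In matched nuclei these were -0.56, -0.45 and -0.53. Against C11 the lowest were genes of other tissues at low scores, with Rtp2 at -0.78 ± 0.25 and Pax3 at -0.77 ± 0.43. Pax3 scored 3.96, 5.70 and 4.58 in C9 and 10.7, 7.81 and 7.88 in C11, so few fragments underlie it.

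**Figure D4:**
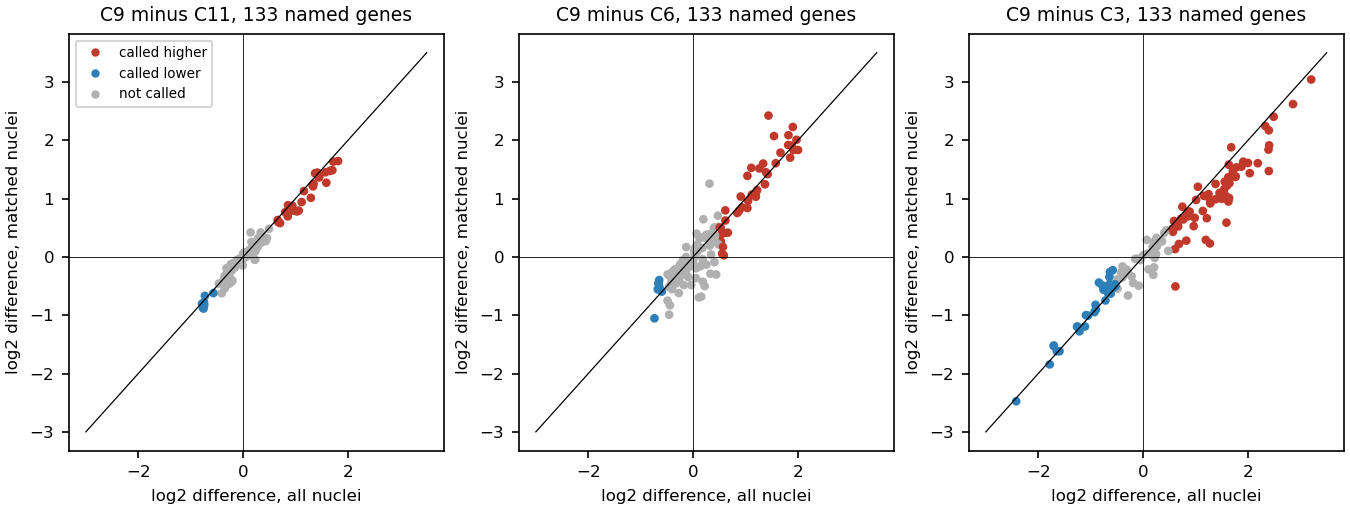
Log2 difference of 133 named genes in nuclei matched on fragment number (y axis) against all nuclei (x axis), for C9 minus C11, C6 and C3, with the line of equality. Of the genes called with all nuclei, 34 of 34 against C11, 48 of 48 against C6 and 95 of 96 against C3 kept their sign. Many named genes were picked for large differences in nuclei that include the matched ones, so kept signs were likely beforehand. Over all genes called higher, 0 of 1933, 258 of 4304 and 286 of 7104 fell below 0 on matching.

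Scores differed between the libraries. WT replicate 3 had the lowest C9 score of the 3 for Myc, Gata2, Jun, Nr4a2, Kit, Bcl11a and Stat5a. Except for Kit, these genes also had their lowest C11 score in replicate 3. Without replicate 3 the count called higher than all 3 clusters was 1577, without replicate 1 it was 1375 and without replicate 2 it was 1392.

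No comparison of KO with WT was made within C9. The KO libraries held 15, 1 and 2 C9 nuclei, fewer than the minimum of 50 a library, so a fit over libraries was not possible. The KO Int cluster C8, with 749, 596 and 675 nuclei, held 2, 8 and 2 nuclei of the WT libraries. Its Gata2 scores were 73.9, 66.4 and 66.1 and its Myc scores 65.1, 58.6 and 58.2, so Gata2 lay above and Myc below every C9 library. Lfng, at 124, 113 and 108 in C8, also lay above every C9 library, and Stat5a, at 35.2, 31.5 and 26.8, overlapped. Bcl11a and Jun lay below every C9 library. The 2 clusters were defined on these data, so these differences were not tested.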

How the data were processed

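Nuclei came from 3 WT and 3 KO single-nucleus ATAC libraries of Ter119+ erythroblasts. The authors deposited a table of gene score signal per nucleus, scaled so that each nucleus summed to about 10000, with tables of nuclei and of genes. The score table has no row names and was read in the order of the gene table. The deposited table of nuclei, per the file headers, gives the fragment count, the nucleosome ratio, the doublet score, the cluster and the genotype. It holds the nuclei as 2 copies, of which 1 was read. The submitters' processing notes name Cell Ranger and mm10. The program that made the scores is not given in the sources used here.

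Gene scores were averaged with equal weight per nucleus within library and cluster in Python 3.11.15 (numpy 2.4.6, pandas 2.3.3), rescaled to 1000000 and compared as log2(score + 1), with the minimum mean of 5 and the call at 0.5 given above. Nuclei were not filtered further and doublets were not removed. Coordinates were checked against RefSeq GRCm38.p6, where 23860 of 23863 matched symbols were on the same chromosome. The calling script was tested on simulated data. The rule for named genes took the 6 highest and 6 lowest called genes of each comparison and up to 10 higher or lower than all 3 clusters, 1 per 100 kb and without predicted, microRNA or olfactory receptor genes. It added the given markers, the regulators, the globins, and from every other list the 2 highest and 2 lowest against C3. Other list members named in the text were chosen after their values were seen. The values of some genes taken by the rule are not reported here. The members and the 21 lists were chosen with earlier results of these data known. The immediate early and Notch lists, and the split of C9 by fragments, were added after the leading genes were seen. Alternatives changed the pseudocount, the filter, the scaling, the weight of nuclei, the nuclei used and the libraries. RNA libraries of the same nuclei were not analysed here.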

Additional observations from a re-analysis of the deposited data

How the results depend on the processing

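The counts of genes called in either direction were 2142 against C11, 4435 against C6 and 8004 against C3. A pseudocount of 5 gave 1302 against C11. A minimum mean of 20 gave 877, 1533 and 2761 for the 3 comparisons, with fewer genes tested. No filter gave 12745 against C3. Quantile normalization gave 2174 against C6 and 4457 against C3, and matching on fragments gave 5090 against C3. The 1420 genes higher than all 3 clusters became 941 with a pseudocount of 5, 598 with a minimum of 20, 354 with median centring, 483 with quantile normalization, 748 with matching and 1421 without the nuclei of highest doublet score. Leaving out 1 library gave 2038 to 2500, 4372 to 5017 and 7734 to 8484 calls, and 1375 to 1577 higher than all 3. Genes called lower than C11 numbered 483 without replicate 2 and 369 without replicate 3, against 209, and those lower than C6 240 without replicate 3, against 131. The split against C11 without a filter was 2041 higher and 764 lower, and against C3 with a minimum of 20 it was 1908 and 853. The excess of median fragments in C9 was 2186.5 to 3321 against C11, 11469.5 to 12935 against C6 and 10801.5 to 11678 against C3.

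Of the values of the named genes under the alternatives, 3389 stayed within 1 SD, 994 moved by more and 6 called values changed sign; values that were not called were not counted as changing sign. Over all genes, 1586 of the 7104 called higher than C3 fell below 0 with quantile normalization and 286 with matching, as did 258 of the 4304 called higher than C6 with matching. Matching on fragments gave Tpsb2 -0.51 against C3. Quantile normalization gave AF067061 -0.49, Tpsb2 -0.27, Zfp352 -0.34, Itgam -0.13 and Camp -0.080 against C3. The cause was not tested. Myc kept its direction under all alternatives run, at 1.19 to 1.48 against C11, 1.25 to 1.84 against C6 and 1.90 to 2.39 against C3.

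For KO against WT within C9, no paired analysis was possible because the KO libraries held too few C9 nuclei for a fit. Differences between clusters were already paired, being taken within each library. The planned KO fit and its alternatives (replicate block, pseudocount, filters, quantile normalization, median centring, no variance trend, matched nuclei and leaving out libraries) were not run. Nuclei of C6 and C3 had fewer fragments than those of C9, and the part of depth in the scores of low genes was not tested beyond the matching.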

Other observations

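The 18 KO nuclei of C9, pooled over 3 libraries, are given as values without a replicate check. Their Gata2 score was 82.4 and their Lfng score 128, beside WT means of 35.5 ± 5.01 and 76.2 ± 5.78 (SD, n = 3). Their Myc score was 17.8 beside 93.3 ± 10.2 and their Bcl11a score 54.1 beside 138 ± 4.74. Gmpr, an enzyme of guanine nucleotide recycling, scored 40.8 beside 13.9 ± 1.19, and Apol11a 34.9 beside 7.59 ± 3.26. In the KO cluster C8 these last 2 genes scored 66.7 ± 1.24 and 61.3 ± 2.45. With 18 nuclei, of which 15 came from 1 library, no difference between genotypes within C9 can be read from these scores.

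Genes higher in C9 than in all 3 clusters also lay in runs of neighbours. The longest held 9 genes on chromosome 17 (chr17:34914466-35188440, mm10), among them Neu1, Ly6g6c and Lst1. A run of 8 on chromosome 14 (chr14:51091077-51204156) held ribonuclease genes such as Ang, Rnase4 and Rnase6. Neighbours share fragments, so a run is not a set of separate measurements.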
